A study of Homo sapiens with 6 samples.

Results

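The enzymes that make serine and pass its carbon through folate were examined in HSC-4, a long-established human cell line from an oral squamous cell carcinoma. The set was defined by current gene symbol and holds 10 of the 58884 genes in the count tables. The steps of serine synthesis are covered by *PHGDH*, *PSAT1* and *PSPH*. The mitochondrial folate branch is covered by *SHMT2*, *MTHFD2*, *MTHFD2L*, *MTHFD1L* and *ALDH1L2*, and the cytosolic branch by *SHMT1* and *MTHFD1*. Each of the 10 members passed the filter on low counts. With DAPT, the transcripts of 6 members rose and those of 3 fell, against 17.2% and 18.0% of all genes tested. The fall of *MTHFD1L*, among these 3, was small and held in 6 of 14 alternative fits, and *MTHFD2L* did not pass the test. Serine synthesis and the mitochondrial genes *SHMT2*, *MTHFD2* and *ALDH1L2* were on the rising side, and both cytosolic genes were on the falling side.

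Cells build serine from a glycolytic intermediate, and serine hydroxymethyltransferases then split it into glycine and a carbon unit that tetrahydrofolate carries. The products of *MTHFD1*, *MTHFD2* and *MTHFD2L* oxidise or reduce that unit. The synthetase activity of *MTHFD1L* and *MTHFD1* releases it as formate or loads formate onto folate. In the usual direction of the cycle, mitochondria turn serine into formate, which leaves for the cytosol and is loaded onto folate again for the synthesis of purines and thymidylate. Many tumours are known for high expression of *PHGDH*, *SHMT2* and *MTHFD2*, and *MTHFD2* is known as an enzyme of embryonic and dividing cells that most resting adult tissues express weakly.

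RNA was sequenced from 3 libraries labelled control and 3 labelled DAPT, and the question was how blocking Notch signaling alters the transcriptome of this cell line. DAPT inhibits γ-secretase, the protease that frees the intracellular domain of Notch receptors, and was given at 50 μM for 24 h. By the study's methods the controls received the DMSO vehicle for the same time. The deposited control columns instead carry the letters GM, and the deposited description speaks of growth medium. The letters themselves are not explained. If those cells were kept without DMSO, effects of the vehicle and of DAPT cannot be told apart. All 6 libraries come from 1 unmodified cell line, and nothing in the labels states that they were separate cultures, so the p-values measure the spread between these libraries, which may be technical.

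The libraries held between 12276313 and 16317672 counted reads, and 3 reads, the smallest signal considered, corresponded to 0.184 to 0.244 CPM, the unit of counts scaled to one library total. CPM values of single genes were also scaled by TMM, which adjusts for differences in library composition. The Notch targets *HES1* and *HEY1* had log2 fold changes of -0.77 and -1.98 with DAPT (adjusted p = 7.2e-08 and 2.03e-13, edgeR's quasi-likelihood test). Of the 8 squamous epithelium markers examined, all but *KRT14* were detected in every library. *KRT14* had 36 to 49 reads in each control and 11, 0 and 8 reads in DAPT libraries 1 to 3. *KRT5*, the highest of the markers, had group means of 2701 CPM in controls and 1315 CPM with DAPT. The summed level of all 8 was 5100 to 5240 CPM in controls and 3460 to 3560 CPM with DAPT, with 5 markers called lower and 2 higher. The part of this shift in the members' changes was not tested. The 4 immune markers summed to at most 0.353 CPM and the 4 endothelial markers to at most 1.35 CPM in any library, with *CD3E* and *CLDN5* at 0 reads. The 5 fibroblast markers summed to 56.2 to 514 CPM in controls and 50.3 to 55.8 CPM with DAPT, with the highest value in control replicate 1. In that library *COL1A1* had 4392 reads, against 652 to 746 in each other library, and *LUM* 106 against 17 to 24. *COL1A2* had 3452 reads against 3 to 28, *DCN* 329 against 0 to 2 and *PDGFRB* 102 against 1 to 6. The source of these reads is not known. Counts of libraries within a group were compared by chi-square per degree of freedom, which grows with their difference. It was 5.68 and 5.58 for control 1 against controls 2 and 3, and 1.58 for 2 against 3. With DAPT it was 4.08 and 3.9 for replicate 1 against 2 and 3, and 1.81 for 2 against 3. Control replicate 1 also stood apart on the second principal component. Without it, 6 members still rose and 3 still fell, with log2 fold changes of 1.33 for *ALDH1L2*, 1.08 for *PSAT1* and -0.68 for *MTHFD1*. Of 15001 genes tested, 17.2% were called higher and 18.0% lower at an adjusted p under 0.05, a split of 2574 against 2707 genes. Scaling by library size alone gave 3445 higher and 2156 lower genes, and moved the median log2 fold change of all genes from 0.01 to 0.06.

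Promoter sequences were read for the members. The RefSeq promoter table (GRCh38.p14) held 11 entries for 7 of the 10 members, each with 250 bases before and 50 bases after a transcription start. It held none for *PSPH*, *SHMT2* and *ALDH1L2*. The 3 entries shown belong to the serine synthesis gene with the greatest rise (*PSAT1*, chr9:78296875-78297174, plus strand), to the member with the greatest fall (*MTHFD1*, chr14:64388103-64388402, plus strand) and to the mitochondrial member that fell (*MTHFD1L*, chr6:150866236-150866535, plus strand). The entries of *MTHFD1* and *MTHFD1L* lie within the genes as counted. Capitals mark matches to the motifs searched, and lower case marks all other bases.
PSAT1: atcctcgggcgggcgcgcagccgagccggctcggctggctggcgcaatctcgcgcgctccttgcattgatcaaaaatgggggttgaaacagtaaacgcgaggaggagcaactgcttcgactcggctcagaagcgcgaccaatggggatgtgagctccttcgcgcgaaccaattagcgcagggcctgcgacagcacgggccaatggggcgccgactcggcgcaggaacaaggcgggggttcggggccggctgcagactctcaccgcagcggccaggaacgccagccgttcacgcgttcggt
MTHFD1: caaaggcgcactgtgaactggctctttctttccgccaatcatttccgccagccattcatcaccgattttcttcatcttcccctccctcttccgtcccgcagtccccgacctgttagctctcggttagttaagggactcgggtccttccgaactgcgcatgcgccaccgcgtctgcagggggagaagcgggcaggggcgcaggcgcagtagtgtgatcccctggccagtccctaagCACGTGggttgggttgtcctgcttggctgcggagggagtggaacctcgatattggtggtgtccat
MTHFD1L: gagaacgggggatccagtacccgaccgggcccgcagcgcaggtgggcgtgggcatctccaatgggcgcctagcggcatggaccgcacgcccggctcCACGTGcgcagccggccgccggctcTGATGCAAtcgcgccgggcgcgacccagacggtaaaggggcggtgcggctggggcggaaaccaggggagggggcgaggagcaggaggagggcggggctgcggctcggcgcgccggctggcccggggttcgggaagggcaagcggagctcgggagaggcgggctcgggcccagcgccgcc
A set of 5 motifs was searched on both strands, and no matches in these 3 entries overlapped. They were TGATGNAA, the composite element of ATF4 and C/EBP factors, found in 3.62% of 35116 promoters of the same length, CACGTG, the E-box bound by MYC among others, in 7.26%, TGACNNNGC, the antioxidant element of NRF2, in 13.3%, TGGGAA, the core bound by RBPJ, the DNA-binding partner of Notch, in 24.0%, and TTTNNCGC, an E2F site, in 6.89%. The *MTHFD1* entry held a single CACGTG, beginning 15 bases before the start. The *MTHFD1L* entry held CACGTG and TGATGCAA, beginning 154 and 129 bases before its start, and both also lay in 2 further entries of this gene that overlap it. The entry of *MTHFD2* held TGACNNNGC on the opposite strand, and 1 of the 2 entries of *MTHFD2L* held TGACNNNGC once and TGGGAA at 2 positions. The entries of *PHGDH*, *PSAT1* and *SHMT1* matched none of the 5 motifs, and no member entry matched TTTNNCGC. These matches describe letters in short windows, and binding was not measured.

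All 3 genes of serine synthesis rose with DAPT. *PHGDH* (ENSG00000092621, chr1:119648411-119744226) encodes the dehydrogenase that opens the pathway by drawing phosphoglycerate from glycolysis. Its level was 235, 261 and 250 CPM in controls 1 to 3 and 325, 340 and 330 CPM in DAPT libraries 1 to 3. Every DAPT library lay above every control, and the log2 fold change was 0.42 ± 0.05 (SE, n = 3 per group, adjusted p = 1.28e-06 by edgeR's quasi-likelihood test, adjusted over all genes tested by the Benjamini-Hochberg method, as for every adjusted p of a single gene that follows). *PSAT1* (ENSG00000135069, chr9:78297125-78330093) encodes the aminotransferase of the next step, which takes its nitrogen from glutamate. It was at 100, 103 and 94.8 CPM in controls and at 195, 220 and 212 CPM with DAPT. All DAPT values were far above the controls, a rise of 2.11-fold (log2 1.07 ± 0.06, adjusted p = 1.98e-12), which ranked 73 from the top among the log2 fold changes of 15001 genes. *PSPH* (ENSG00000146733, chr7:56011051-56051604) encodes the phosphatase that releases free serine. Its controls were at 75.9, 83.3 and 72.4 CPM and its DAPT libraries at 100, 106 and 108 CPM. The groups did not overlap, and the log2 fold change of 0.44 ± 0.06 (adjusted p = 4.78e-06) was close to that of *PHGDH* and below that of *PSAT1*, with 95% intervals of 0.32 to 0.56, 0.31 to 0.52 and 0.96 to 1.19. Reads shared with near-identical copies were not counted, and the pseudogene *PSPHP1* had 37 to 45 reads in each library.

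**Figure D1:**
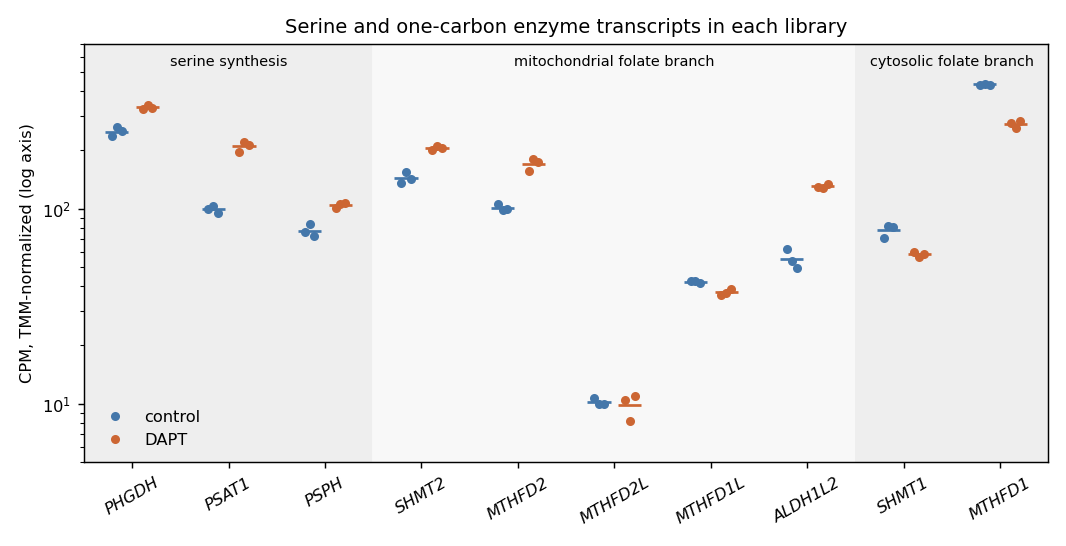
TMM-normalized CPM of the 10 members in each of the 6 libraries on a log axis, with controls in blue, DAPT libraries in orange and group means as bars. For 6 genes all DAPT points lie above the controls, for *MTHFD1L*, *SHMT1* and *MTHFD1* all lie below, and for *MTHFD2L* the groups overlap.

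In the mitochondrial branch, *SHMT2*, *MTHFD2* and *ALDH1L2* rose, *MTHFD1L* fell slightly and *MTHFD2L* did not pass the test. *SHMT2* (ENSG00000182199, chr12:57229573-57234935) encodes the mitochondrial serine hydroxymethyltransferase. It was at 135, 155 and 141 CPM in controls and at 199, 209 and 204 CPM with DAPT. The groups were separate, with a log2 fold change of 0.51 ± 0.05 (adjusted p = 2.22e-07). *MTHFD2* (ENSG00000065911, chr2:74198610-74217565) encodes the dehydrogenase and cyclohydrolase that oxidises the carbon unit further. The 3 controls were at 106, 99.0 and 99.5 CPM and the DAPT libraries at 156, 180 and 174 CPM. This was a rise of 1.68-fold (log2 0.74 ± 0.06, adjusted p = 1.47e-09). Its paralog *MTHFD2L* (ENSG00000163738, chr4:74114174-74303099), with the same activities, was the member with the fewest reads, 112 to 172 per library. It was at 10.7, 9.97 and 9.94 CPM in controls and at 10.4, 8.19 and 11 CPM with DAPT. The groups overlapped, and the log2 fold change was -0.05 ± 0.12 (adjusted p = 0.766), with a 95% interval of -0.30 to 0.20 that lay below the whole interval of *MTHFD2*, 0.63 to 0.86.

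The last 2 mitochondrial members act at the end of the branch and moved in opposite directions. *ALDH1L2* (ENSG00000136010, chr12:105019784-105107643) encodes the formyl-tetrahydrofolate dehydrogenase of mitochondria, which burns the carbon unit to CO2 while making NADPH. It rose from 62.2, 53.7 and 49.9 CPM in controls to 129, 128 and 134 CPM with DAPT. Its rise of 2.35-fold (log2 1.23 ± 0.07, adjusted p = 6.72e-12) was the greatest among the 10 members and ranked 50 from the top among the 15001 genes. *MTHFD1L* (ENSG00000120254, chr6:150865549-151101887) encodes the synthetase that releases formate from mitochondria. Its controls were at 42.7, 42.8 and 41.6 CPM and its DAPT libraries at 36.2, 37.0 and 38.6 CPM. All DAPT values were below the controls, but the difference was small (log2 fold change -0.19 ± 0.07, adjusted p = 0.0401). This call held in 6 of 14 alternative fits. It was lost with DESeq2 (adjusted p = 0.0831), with library size alone (0.123), without a filter (0.0781) and, with edgeR, without control replicate 2 (0.0917) or 3 (0.0577) and without DAPT replicate 1 (0.109), 2 (0.102) or 3 (0.0529).

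Both members of the cytosolic branch fell. *SHMT1* (ENSG00000176974, chr17:18327860-18363563) encodes the cytosolic serine hydroxymethyltransferase, which feeds thymidylate synthesis. It was at 70.9, 81.9 and 81.0 CPM in controls and at 60.3, 56.4 and 58.3 CPM with DAPT. Every DAPT library was below every control (log2 fold change -0.41 ± 0.06, adjusted p = 2.41e-05). *MTHFD1* (ENSG00000100714, chr14:64388031-64463457) encodes the cytosolic enzyme with 3 activities that joins formate to tetrahydrofolate and interconverts the loaded forms. The controls were nearly equal at 434, 438 and 433 CPM, and the DAPT libraries were at 275, 261 and 280 CPM. The log2 fold change was -0.68 ± 0.05 (adjusted p = 3.06e-10), a fold of 0.625 against controls. In RNA from whole cultures, less RNA of a gene in each cell and a smaller share of the cells that express it, such as cells in one phase of the cycle, cannot be told apart.

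**Figure D2:**
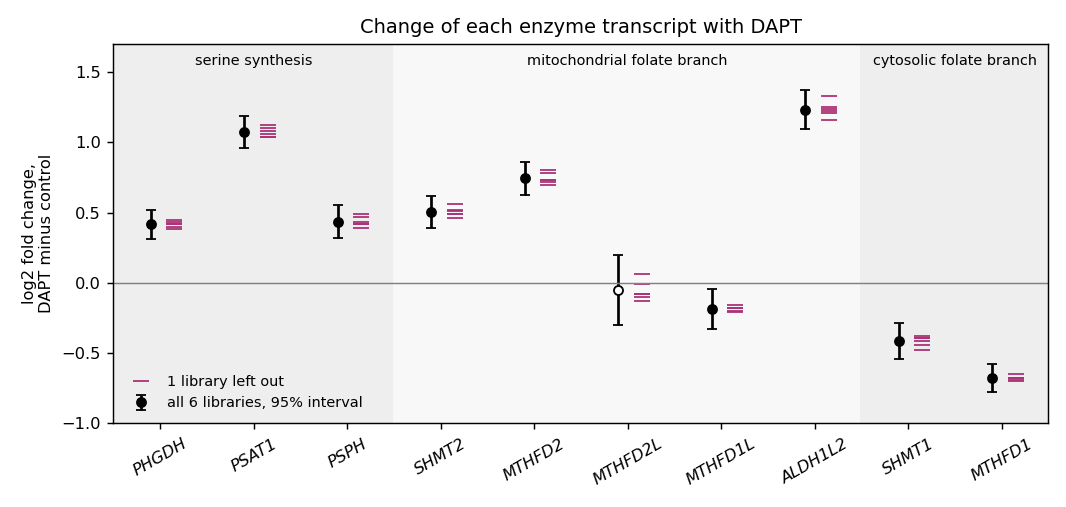
Log2 fold change of each member, DAPT minus control, with its 95% interval (circles, filled where the adjusted p was under 0.05) and the estimates with 1 library left out (purple dashes). The estimates run from -0.68 for *MTHFD1* to 1.23 for *ALDH1L2*, and among the estimates with 1 library left out the sign changes for *MTHFD2L* alone.

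Of the 10 members, 6 were called higher against 17.2% of all genes tested, and 3 were called lower against 18.0%. In 9 of 10 the groups did not overlap, against 46.3% of all genes. The median log2 fold change was 0.43 over the members and 0.01 over all genes. With 1 library left out, the log2 fold changes ranged from 1.16 to 1.33 for *ALDH1L2*, 1.04 to 1.12 for *PSAT1*, 0.70 to 0.80 for *MTHFD2*, 0.46 to 0.56 for *SHMT2* and -0.70 to -0.65 for *MTHFD1*. Each of the 8 members other than *MTHFD1L* and *MTHFD2L* was called in all 14 alternative fits.

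The mitochondrial and cytosolic branches were then compared as summed levels. The mitochondrial sum of 5 genes was 357, 361 and 342 CPM in controls and 531, 562 and 562 CPM with DAPT. The cytosolic sum of 2 genes was 504, 520 and 514 CPM in controls and 335, 317 and 339 CPM with DAPT. The first was higher and the second lower in every DAPT library than in any control, with ratios of group means of 1.56 and 0.644. In controls *MTHFD1* held 435 of the mean 513 CPM of the cytosolic sum. The cytosolic ratio therefore mostly follows this gene, with a fold of 0.625, and less *SHMT1*, with 0.750. Serine synthesis summed to 425 ± 19.6 CPM (SD, n = 3) in controls and to 645 ± 22.9 CPM with DAPT, a ratio of 1.52. The median log2 fold change was 0.51 in the mitochondrial branch and -0.55 in the cytosolic branch, a gap of 1.05 that ranged from 1.01 to 1.09 with 1 library left out. These values describe chosen members and were not tested. The mitochondrial median covers unequal members, since the log2 fold changes of *MTHFD1L* and *MTHFD2L* were -0.19 and -0.05.

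Per kilobase of gene length, the mitochondrial genes made up 59.4 ± 0.669% of the level of both folate branches in controls and 77.1 ± 1.12% with DAPT (SD, n = 3). These shares used the summed length of all exonic bases of a gene. With the length of the MANE Select transcript, an alternative chosen after the data were seen, they were 40.3 ± 0.615% and 60.3 ± 1.36%. The share was higher in each DAPT library than in each control under both lengths, whereas the branch with the greater level in controls depended on the length used.

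**Figure D3:**
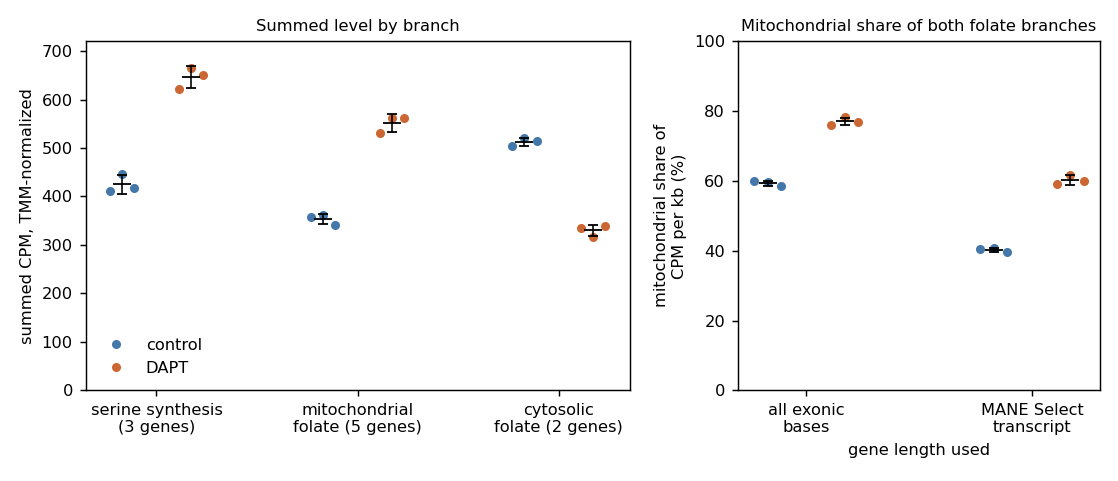
Left, summed TMM-normalized CPM of the serine synthesis genes and of both folate branches in each library, and right, the mitochondrial share of the level per kilobase of both branches with either gene length. Points are libraries (blue control, orange DAPT), and bars are means ± SD (n = 3), with the mitochondrial share at 59.4% in controls and 77.1% with DAPT for exonic bases.

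Paralogs that carry out like reactions were compared as ratios of levels per kilobase. *SHMT2* to *SHMT1*, the mitochondrial against the cytosolic hydroxymethyltransferase, was 3.03, 3.00 and 2.77 in controls and 5.23, 5.89 and 5.56 with DAPT. This was 1.90-fold higher with DAPT, from a rise of one gene and a fall of the other. *MTHFD1L* to *MTHFD1*, which share the synthetase activity, was 0.239, 0.238 and 0.233 in controls and 0.320, 0.345 and 0.335 with DAPT. It was 1.41-fold higher although both transcripts fell, since *MTHFD1* fell further. *MTHFD2* to *MTHFD2L*, both mitochondrial, was 20.1, 20.2 and 20.4 in controls and 30.5, 44.7 and 32.3 with DAPT. The 1.75-fold difference rested in part on the few reads of *MTHFD2L* in DAPT replicate 2, and the difference in log2 ratio was 0.80 with that library and 0.63 without it. In an exact two-sided permutation test over the 6 libraries each of the 3 ratios gave p = 0.1, the smallest value that 3 against 3 libraries allow, and 0.1 after Benjamini-Hochberg adjustment over the 3 pairs.

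**Figure D4:**
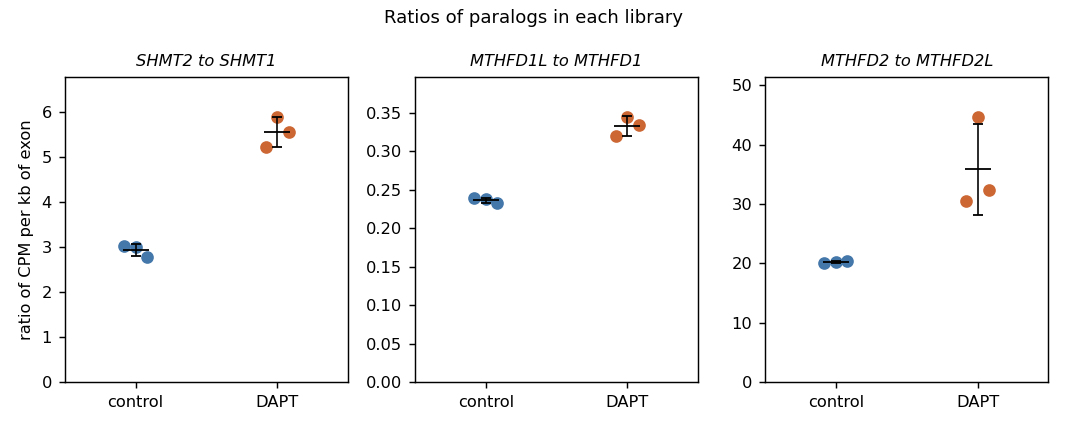
Ratio of the levels per kilobase of exon for *SHMT2* to *SHMT1*, *MTHFD1L* to *MTHFD1* and *MTHFD2* to *MTHFD2L* in each library, with means and SD (n = 3). All DAPT values lie above all controls in each panel, and *MTHFD2* to *MTHFD2L* spreads from 30.5 to 44.7 with DAPT.

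The order of the members by level depended on the gene length. Per kilobase of exon, the controls ran from *PSAT1* at 45.0 CPM per kilobase over *MTHFD1* at 35.6, *SHMT2* at 31.3, *PSPH* at 28.0, *PHGDH* at 27.0 and *MTHFD2* at 21.0 down to *SHMT1* at 10.7, *MTHFD1L* at 8.44, *ALDH1L2* at 5.82 and *MTHFD2L* at 1.04. With the MANE Select transcript, *MTHFD1* at 138 and *PHGDH* at 133 CPM per kilobase came first in controls, and *PHGDH* at 178 came first with DAPT. Per kilobase of exon, the control libraries of *SHMT2* and *PSPH* overlapped, as did those of *PSPH* and *PHGDH*, and the other neighbours in this order did not overlap. With DAPT, *PSAT1* at 94.8 and *SHMT2* at 44.5 CPM per kilobase of exon came first and stood apart, while *PSPH* at 37.9, *PHGDH* at 36.0 and *MTHFD2* at 35.2 overlapped. Under both lengths the mean of *MTHFD1* stood below those of *PSAT1*, *SHMT2* and *PHGDH* with DAPT, at 22.3 CPM per kilobase of exon or 86.2 per kilobase of the MANE Select transcript, and *ALDH1L2* passed *MTHFD1L*. With the MANE Select length the DAPT libraries of *MTHFD1*, at 82.7 to 88.9, overlapped those of *PSAT1*, at 88.4 to 99.8. *MTHFD2L* was lowest in both groups under both lengths.

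Other folate enzymes and carriers were examined as a list of 13 genes, which does not cover all folate enzymes. Of these 13, 12 were tested, 1 rose and 6 fell, against 17.2% and 18.0% of all genes, and the median log2 fold change was -0.20. *TYMS*, the thymidylate synthase, went from 77.7, 75.7 and 77.5 CPM in controls to 48.5, 51.5 and 55.7 CPM with DAPT (log2 fold change -0.57, adjusted p = 2.19e-07). Like *SHMT1*, which provides the carbon unit for this reaction, it was lower in every DAPT library than in any control. *SLC19A1*, the reduced folate carrier, had a log2 fold change of -0.84 (13.4 ± 0.908 to 7.47 ± 1.22 CPM, adjusted p = 1.62e-05). *GART*, an enzyme of purine synthesis that takes formyl groups from folate, went from 90.9, 84.4 and 82.4 CPM to 69.2, 66.5 and 67.7 CPM (log2 fold change -0.34, adjusted p = 5.94e-05). *ATIC*, a further purine enzyme of this kind, and *FPGS* and *GGH*, which add and remove the glutamate tail of folates, also fell. The gene that rose was *SLC46A1*, the proton-coupled folate transporter, from 67.0, 65.2 and 70.4 CPM to 79.4, 84.4 and 86.0 CPM (log2 fold change 0.30, adjusted p = 0.000240). *ALDH1L1*, the cytosolic counterpart of *ALDH1L2*, had 1 to 4 reads per library and was not tested.

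**Figure D5:**
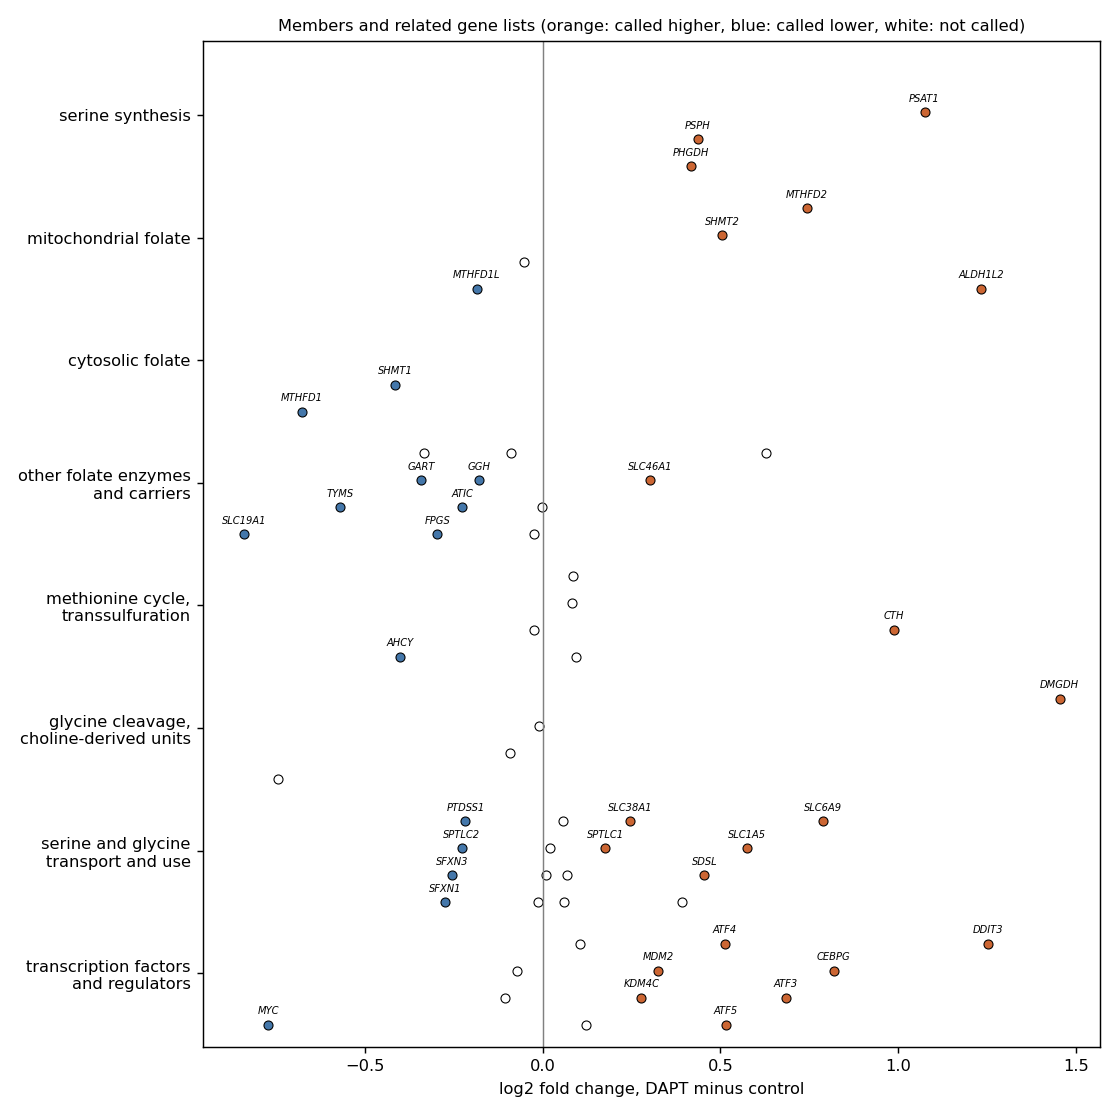
Log2 fold change, DAPT minus control, of every tested gene in the members' 3 groups and in 5 related lists, in orange where called higher, blue where called lower and white where not called (the height within a list has no meaning). Serine synthesis lies wholly above 0 and the cytosolic branch wholly below, while the other folate genes run from -0.84 to 0.63.

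Among genes of serine and glycine transport and use, 16 of 17 were tested, and 5 rose and 4 fell, against 17.2% and 18.0% of all genes. The median log2 fold change was 0.06, and *SDS*, serine dehydratase, had 0 or 1 read per library and was not tested. *SLC6A9*, a glycine transporter, rose from 36.8, 40.9 and 35.8 CPM to 66.5, 62.5 and 67.1 CPM (log2 fold change 0.79, adjusted p = 7.66e-09). *SLC1A5*, which carries glutamine, serine and other neutral amino acids, rose with a log2 fold change of 0.57 (132 ± 8.02 to 197 ± 8.83 CPM, adjusted p = 4.01e-08), and *SDSL*, a relative of serine dehydratase, with 0.45 (adjusted p = 0.00499). *SFXN1*, a carrier that brings serine into mitochondria, fell from 83.6, 78.9 and 81.8 CPM to 69.7, 67.3 and 64.9 CPM (log2 fold change -0.27, adjusted p = 0.000504). Its relative *SFXN3* and *SPTLC2*, a subunit of the enzyme that uses serine for sphingolipids, fell with log2 fold changes of -0.26 and -0.23 (adjusted p = 0.00415 and 0.00249). *SPTLC1*, the partner subunit of *SPTLC2*, named here after its values were seen, rose with 0.18 (adjusted p = 0.0101), and *SPTLC3* was not called (log2 fold change 0.02, adjusted p = 0.874). The transcript of *SFXN1* was thus slightly lower while that of *SHMT2*, an enzyme that uses serine in mitochondria, was higher. A further relative of *SFXN1*, *SFXN2*, was not called (log2 fold change 0.01, adjusted p = 0.973).

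Transcription factors and regulators known to act on these genes were measured as transcripts only. All 12 were tested, 7 rose and 1 fell, against 17.2% and 18.0% of all genes, with a median log2 fold change of 0.30. *DDIT3*, a factor of the integrated stress response, went from 16.7, 18.4 and 16.4 CPM to 35.4, 45.9 and 41.6 CPM (log2 fold change 1.25, adjusted p = 1.32e-09). *CEBPG*, a partner of ATF4, rose with a log2 fold change of 0.82 (64.8 ± 4.95 to 115 ± 6.19 CPM, adjusted p = 8.61e-10), and *ATF3* with 0.68 from few reads (2.98 ± 0.226 to 4.81 ± 0.221 CPM, adjusted p = 0.00317). *ATF4*, which is known to activate the serine synthesis genes and *MTHFD2* and is named here after its values were seen, went from 143, 153 and 146 CPM to 222, 209 and 200 CPM (log2 fold change 0.51, adjusted p = 1.16e-07). *MYC*, also known to act on several of the members, was the gene that fell, from 67.5, 72.4 and 72.8 CPM to 41.9, 40.8 and 41.8 CPM (log2 fold change -0.77, adjusted p = 2.70e-09). Whether any of these factors had a part in the changes of the members was not tested.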

How the data were processed

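Single-end reads were trimmed by the authors (Trim Galore) and aligned to GRCh38 (HISAT2), and reads on the strand of each gene of Ensembl release 96 were counted by featureCounts 1.6.3. The deposited values are these raw counts, and the deposited gene length was used for levels per kilobase. The submitters' processing notes also name HTSeq and DESeq2. Reads that mapped to several places or genes were not counted by default. Symbols were matched for 58472 of 58884 identifiers (GENCODE release 44), and coordinates are those of the count tables. Depth was 12276313 to 16317672 reads, and the floor of 3 counts covers counting error only.

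Groups came from the labels. The 3 DAPT and 3 control libraries were compared with edgeR 4.0.16 in R 4.3.3 (filter with a minimum count of 10, TMM, robust quasi-likelihood F test, Benjamini-Hochberg adjustment over 15001 genes, calls at an adjusted p under 0.05). SEs were derived from the test statistic, and 95% intervals from the SE. Ratios were tested by exact permutation. Alternatives were DESeq2 1.42.0, limma-voom 3.58.1, RLE, library size alone, other filters, a fit that was not robust, a threshold of 0.01, 1 added count in the ratios, a replicate block and each library left out. The procedure was tested on simulated data.

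Members and lists were chosen with earlier results of these data known. Some genes of the list of other folate enzymes are not reported here and were left out of its counts. Values were given for all members, *HES1*, *HEY1*, up to 3 called genes in each direction of each related list, and the genes under the filter. *ATF4*, *SFXN2*, *SPTLC1* and *SPTLC3* were added outside this rule after their values were seen, as were values of single cell type markers.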

Additional observations from a re-analysis of the deposited data

How the results depend on the processing

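Members called higher numbered 6 under every alternative fit and at an adjusted p under 0.01. Members called lower numbered 3 or 2, depending on *MTHFD1L*, whose adjusted p ranged from 0.0300 to 0.123 over 14 alternative fits. The log2 fold change of *MTHFD2L* reversed to 0.06 without DAPT replicate 2, with no call in either fit, and was -0.13 without DAPT replicate 3. At an adjusted p under 0.01, 3338 genes were called, 1516 of them higher. The ratios of paralogs and the gap between branches kept their direction in every alternative run. The labels do not state that equal replicate numbers mark paired libraries, and the numbers were not taken to pair them. Deviations of same-numbered libraries correlated at 0.0173, 0.0252 and 0.00382 over 15001 genes. These values weigh genes with few reads like all others, so they cannot exclude a batch shared by same-numbered libraries. With a replicate block, 2558 genes were higher and 2737 lower, 6 members were higher and 3 lower, the gap between branches was 1.05, and the log2 ratios differed by 0.92, 0.49 and 0.80. With 3 libraries a group no ratio could pass a threshold of 0.05 in the exact test. Levels per kilobase of 9 of 10 members changed with the MANE Select length by more than the spread between libraries. Depth limited the precision of genes with few reads, among them *MTHFD2L*, *ATF3*, *CTH* and *DMGDH*.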

Other observations

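Downstream of the members, glycine can be split for its carbon unit, and homocysteine can be methylated back to methionine or drawn into cysteine. Of 7 genes for glycine cleavage and units derived from choline, 4 were tested, with 1 called higher and 0 lower, against 17.2% and 18.0% of all genes. *DMGDH*, the dimethylglycine dehydrogenase of mitochondria, rose from 1.5, 1.01 and 0.911 CPM in controls to 2.21, 4.24 and 3.23 CPM with DAPT (log2 fold change 1.45, adjusted p = 0.000332, Benjamini-Hochberg adjusted over all genes, edgeR). The groups did not overlap, at a low level. *GLDC*, the decarboxylase that starts glycine cleavage, had 3 to 8 reads per library and was not tested, nor were *AMT*, with 1 to 5 reads, and *GNMT*, with 2 to 5 reads.

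Of 9 genes of the methionine cycle and transsulfuration, 6 were tested, with 1 called higher and 1 lower, against 17.2% and 18.0% of all genes. *CTH*, which makes cysteine from cystathionine, rose from 1.99, 2.09 and 2.32 CPM to 4.48, 4.31 and 3.84 CPM (log2 fold change 0.99, adjusted p = 0.000306, edgeR). *AHCY*, which clears S-adenosylhomocysteine, fell from 204, 224 and 218 CPM to 165, 154 and 170 CPM (log2 fold change -0.40, adjusted p = 4.60e-06, edgeR). The other 4 tested genes were not called, and *CBS* with 3 to 8 reads, *BHMT* with 1 to 5 reads and *BHMT2* with 0 reads per library were under the filter. Reads that also mapped elsewhere were not counted, and near-identical copies of these genes were not searched for. Their low counts therefore do not show that they are not expressed. The median log2 fold change was 0.08 for this list and -0.05 for that of glycine cleavage, against 0.01 over all genes.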
